A study of Mus musculus with 9 samples.

Results

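The TGF-beta and BMP signalling genes examined here are a list of 43 genes for ligands, receptors, SMAD proteins, inhibitors, binding proteins and targets of the pathway, chosen by gene symbol. Of these, 42 had a probe set with that symbol, 1 row each, among 19505 genes measured. Gdf15, a stress-induced secreted factor, was not analysed here.

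The signals come from heart muscle at the edge of the infarct (peri-infarct region) in female SCID mice aged 80 to 100 days when obtained, taken 4 weeks after ligation of the left anterior descending coronary artery. SCID mice lack functional T and B lymphocytes. All hearts were infarcted, and the groups differ in what was injected: exosomes precipitated from stem-cell-derived cardiomyocytes (iCM-Ex), the cardiomyocytes themselves, differentiated from induced pluripotent stem cells until they beat (iCM), or saline. Each group had 3 biological replicates on 1 Clariom S array each, 9 arrays in all. Neither an uninjured heart nor the infarct core was included, and the labels name no species or line for the stem cells, no dose and no day of injection.

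TGF-beta and BMP ligands are secreted dimers that bring together type I and type II serine/threonine kinase receptors. The activated type I receptor phosphorylates receptor SMAD proteins, SMAD2 and SMAD3 for TGF-beta and activins, SMAD1, SMAD5 and SMAD9 for BMPs, which join SMAD4 and act on genes in the nucleus. TGF-beta is stored in the matrix bound to latent TGF-beta binding proteins. In the infarcted heart the TGF-beta arm is known for fibroblast activation and scar formation, and the receptor BMPR2, the type I receptor ALK1 (Acvrl1) and the coreceptor endoglin (Eng) are best known in blood vessels, where the Id genes are classical BMP targets.

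Over the 42 genes 3 differences passed the test (limma on log2 signals, Benjamini-Hochberg adjusted p under 0.05 over all genes). Bmpr2, the type II receptor for BMPs, fell by 2.76 ± 0.50 (log2, SE) in iCM relative to saline hearts, and Eng fell by 2.89 ± 0.67. Id3, an inhibitor of helix-loop-helix transcription factors, was higher in iCM-Ex than in iCM hearts by 3.18 ± 0.64. No member passed in iCM-Ex against saline, where 0.349% of all genes did. The share called was 4.76% in iCM minus saline, against 3.67% of all genes, and 2.38% in iCM-Ex minus iCM, against 1.07%.

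The bases upstream of these 3 genes, and of Id2, whose difference was like that of Id3 in size, are shown because the results turn on these genes. They are the 250 bases before the annotated start, from RefSeq in build GRCm38.p6, read 5′ to 3′ on the gene's strand. Capitals mark the letters GGCGCC, a BMP-responsive motif, and CAGAC or its reverse complement GTCTG, a SMAD-binding motif, searched on both strands. No window shown held both motifs, so their matches could not overlap.
Bmpr2 (chr1:59764029-59764278, plus strand): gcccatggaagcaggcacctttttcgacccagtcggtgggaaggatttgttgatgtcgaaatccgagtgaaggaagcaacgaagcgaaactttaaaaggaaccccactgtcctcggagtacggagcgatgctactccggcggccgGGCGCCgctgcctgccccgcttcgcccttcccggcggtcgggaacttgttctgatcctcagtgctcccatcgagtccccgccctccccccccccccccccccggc
Eng (chr2:32646345-32646594, plus strand): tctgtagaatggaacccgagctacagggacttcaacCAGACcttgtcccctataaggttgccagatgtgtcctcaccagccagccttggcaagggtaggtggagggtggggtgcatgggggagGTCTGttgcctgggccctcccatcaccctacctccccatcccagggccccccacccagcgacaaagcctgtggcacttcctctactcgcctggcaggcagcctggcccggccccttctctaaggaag
Id3 (chr4:136143572-136143821, plus strand): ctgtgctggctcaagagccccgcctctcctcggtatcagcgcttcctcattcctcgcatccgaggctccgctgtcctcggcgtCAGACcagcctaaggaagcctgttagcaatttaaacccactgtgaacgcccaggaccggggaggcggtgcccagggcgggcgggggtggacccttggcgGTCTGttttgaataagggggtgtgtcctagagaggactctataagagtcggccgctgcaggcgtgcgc
Id2 (chr12:25096093-25096342, minus strand): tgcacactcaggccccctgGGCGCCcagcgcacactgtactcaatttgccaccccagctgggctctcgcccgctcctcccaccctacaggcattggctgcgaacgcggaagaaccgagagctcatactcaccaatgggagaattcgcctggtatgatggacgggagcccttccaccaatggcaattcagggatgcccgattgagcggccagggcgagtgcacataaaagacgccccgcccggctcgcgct

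GGCGCC stood once each in the Bmpr2 and Id2 windows and was not in the Eng and Id3 windows. CAGAC or GTCTG stood at 2 places each in the Eng and Id3 windows and was not in the other two. Of 32851 RefSeq windows of this length, 9.59% held GGCGCC and 42.2% held CAGAC or GTCTG. The 4 windows were 62.4% to 64.0% G or C, against a median of 52.4% over all windows. A match describes the letters only. Of the 42 members, 30 had a window in the table, and Id1 was not among them.

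Markers of other tissues stood out on 3 arrays. The mean log2 signal of 9 lung markers was 9.09 in iCM-Ex replicate 3, 12.54 in iCM replicate 1 and 4.15 to 5.97 on the other arrays. That of 9 fast skeletal muscle markers was 12.89 in iCM replicate 2 and 5.53 to 6.63 elsewhere, and that of 7 adipocyte markers was 8.86 in iCM replicate 2 and 4.11 to 5.54 elsewhere. The 8 cardiomyocyte markers averaged 16.21 to 18.07 over the 9 arrays, and 7 T and B lymphocyte markers 4.06 to 4.52. Control separation, the median signal of positive minus negative control probe sets and a measure of array quality, was 3.77 ± 0.21 in iCM-Ex, 2.94 ± 0.41 in iCM and 3.44 ± 0.15 in saline (SD, n = 3 each). The arrays of the groups did not overlap in it, at 3.63 to 4.01, 2.47 to 3.21 and 3.26 to 3.56 in the same order. Array quality by this measure therefore cannot be told apart from treatment, and fits with it as a covariate cannot separate them. Each called difference is also given without iCM-Ex replicate 3 and iCM replicates 1 and 2, which leaves 1 iCM array, assumed to vary like the others.

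Most members lay above the median negative control, which by itself does not show that they were well measured. The deposited values are log2 signals, so a difference of 1 is a doubling. Levels of different probe sets cannot be set against each other. For 36 of the 42 members the mean lay above the median negative control probe set (4.86 in iCM-Ex, 5.31 in iCM and 5.29 in saline) in each group. The other 6, Bmp2, Bmp7, Acvr2b, Smad9, Grem1 and Nog, lay below it in all groups, and sizes of their differences are uncertain. The median SD between replicates over the members was 0.55 in iCM-Ex, 0.51 in iCM and 0.66 in saline. Over all genes above the median level it was 0.42, 0.52 and 0.50, so the members spread more widely in iCM-Ex and saline and about equally in iCM.

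**Figure D1:**
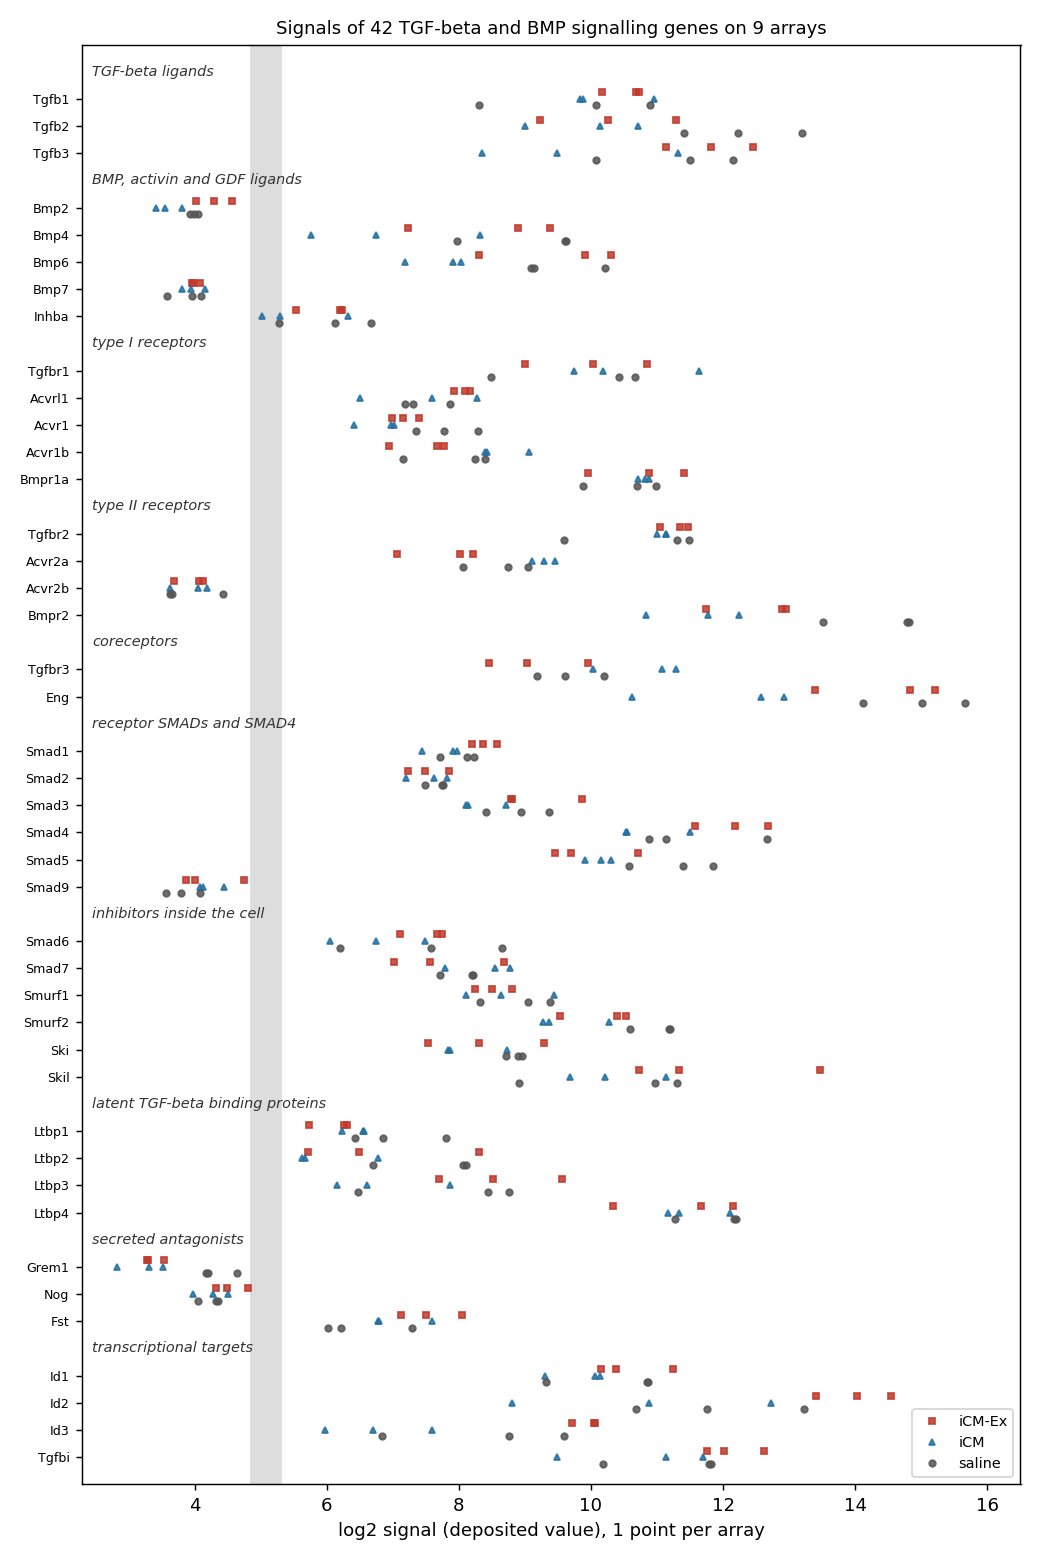
Log2 signals of the 42 measured members, 1 point per array, for iCM-Ex (squares), iCM (triangles) and saline (circles), grouped by role. The grey band spans the group means of the median negative control, from 4.86 to 5.31, and 6 members lie below it, while Bmpr2 in saline lies above both injected groups.

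The replicates of a group did not lie evenly. In iCM-Ex, replicate 1 held the highest value for 27 of 42 members (64.3%, against 34.2% of all genes) and replicate 3 the lowest for 27 (64.3%, against 33.0%). In iCM, replicate 1 was highest for 27 members and replicate 3 lowest for 20 (47.6%, against 31.9%). Saline replicate 1 was lowest for 32 members (76.2%, against 47.9%). The mean over all members ran from 8.45 to 9.04 in iCM-Ex, from 7.97 to 8.60 in iCM and from 8.22 to 9.14 in saline, so the groups overlapped in this mean.

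The comparison of iCM with saline sets hearts given the cells against hearts given saline. Of the 42 members, 0 rose and 2 fell, Bmpr2 and Eng. The share that fell was 4.76%, against 2.33% of all genes, and 1.34% of all genes rose. At an unadjusted p under 0.05 there were 12 members (28.6%, against 20.5% of all genes), 11 of them lower in iCM. The arrays did not overlap for 9 members lower in iCM (21.4%, against 10.2% of all genes) and for 2 higher (4.76%, against 13.8%). The median difference over members was −0.48, against 0.08 over all genes, and 28 of the 42 were lower. Leaving out iCM replicate 3 gave a median of −0.22, and leaving out saline replicate 1, 2 or 3 gave −0.79, −0.23 and −0.20. With control separation as a covariate that median was −0.31, and without the 3 arrays named above it was −0.64.

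Bmpr2 pairs with type I receptors to bind BMPs. Its signal was 12.88, 12.95 and 11.74 in iCM-Ex, 12.24, 10.83 and 11.76 in iCM and 13.51, 14.82 and 14.79 in saline. Every array of both injected groups lay below every saline array. In iCM it fell 6.79-fold relative to saline (limma adjusted p = 0.0199), with a 95% confidence interval of −3.87 to −1.65. In iCM-Ex minus saline the difference was −1.85 ± 0.50 (adjusted p = 0.128). The 2 comparisons with saline share the saline arrays. Bmpr2 was also the member past the moderated F test over the 3 groups (adjusted p = 0.0368), 1 of 42 or 2.38%, against 3.32% of all genes. Adjusted p for iCM minus saline was 0.0706 without iCM replicate 2, 0.0859 without saline replicate 2 and 0.0547 without saline replicate 3. Without the 3 arrays with other tissue markers the difference was −2.61 (adjusted p = 0.161). Control separation entered as a covariate gave −1.80 (adjusted p = 0.226).

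Eng, a coreceptor of TGF-beta and BMP receptors on endothelium, had signals of 13.40, 14.83 and 15.21 in iCM-Ex, 12.93, 10.62 and 12.57 in iCM and 14.12, 15.01 and 15.65 in saline. The iCM arrays lay below all others, and the iCM-Ex and saline arrays overlapped. Its fall in iCM relative to saline was 7.40-fold (limma adjusted p = 0.0443). The call was lost without any of 7 arrays, namely iCM-Ex replicates 2 (0.0684) and 3 (0.0626), iCM replicates 2 (0.121) and 3 (0.0616), and saline replicates 1 (0.0512), 2 (0.131) and 3 (0.113). Without the 3 arrays with other tissue markers the difference was −2.36 (adjusted p = 0.263). Control separation entered as a covariate gave −1.40 (adjusted p = 0.396). In iCM-Ex minus iCM the difference was 2.44 ± 0.67 (adjusted p = 0.114). That value was −0.04 with control separation as a covariate.

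Fewer cells of a type and less RNA per cell cannot be told apart in such tissue samples. Over 7 endothelial markers, none passed in iCM against saline, 3 were higher and 4 lower, and their mean was 9.83 to 10.86 in iCM-Ex, 10.35 to 11.21 in iCM and 10.78 to 11.38 in saline. Cdh5, the endothelial cadherin gene and the marker of these 7 past the F test (adjusted p = 0.0486), was at 12.17, 12.52 and 12.15 in iCM-Ex, 13.17, 13.55 and 13.72 in iCM and 13.52, 13.26 and 13.47 in saline. In iCM minus saline Cdh5 differed by 0.06 and Tek by −1.42, the latter without overlap (limma adjusted p = 0.277). In iCM-Ex minus saline 2 of the 7 were higher, Emcn by 0.51 and Vwf by 0.22. The other 5 were lower, among them Cdh5 (−1.14). The part of endothelial cell number in the Eng and Bmpr2 differences was not tested.

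**Figure D2:**
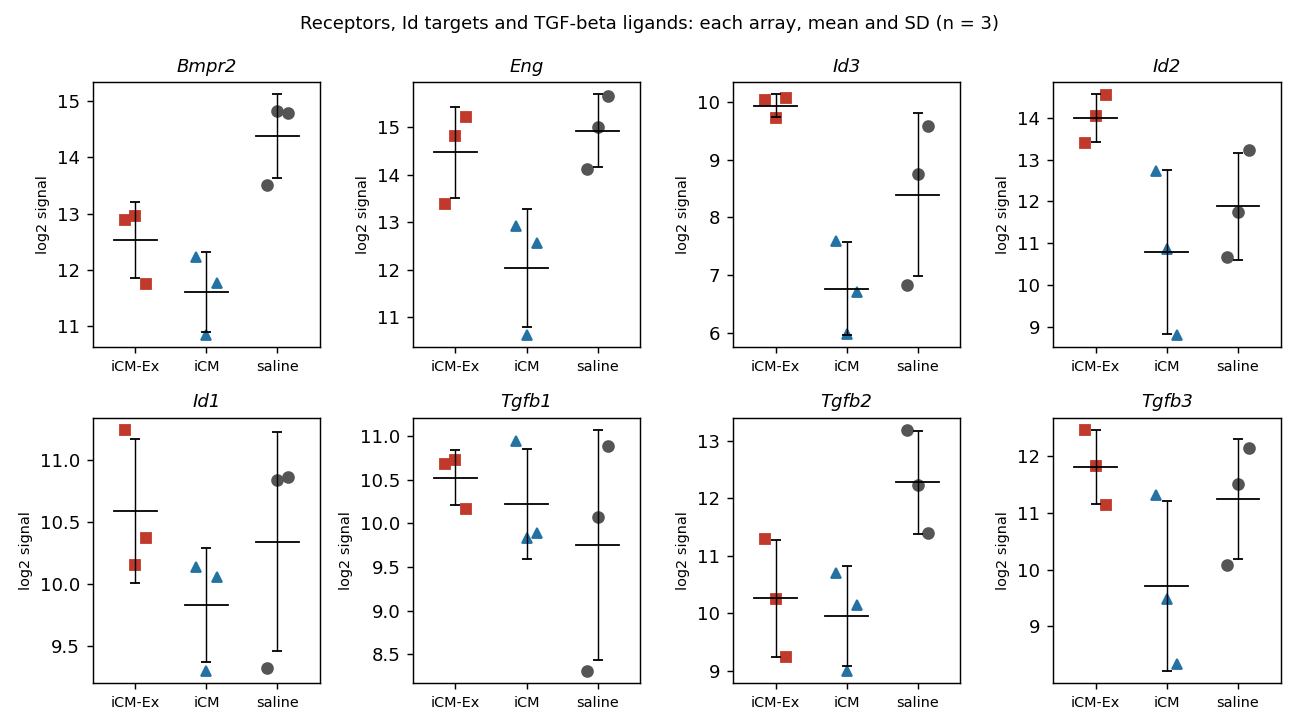
Log2 signals of 8 members on each array, with the group mean (line) and SD (bars, n = 3), for iCM-Ex, iCM and saline. The 3 iCM arrays of Eng lie between 10.62 and 12.93, below the other 6, and the 3 iCM-Ex arrays of Id3 lie between 9.72 and 10.06, above the other 6.

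The TGF-beta ligands differed in their pattern over the groups. Tgfb1, the main fibrogenic isoform, was at 10.68, 10.73 and 10.17 in iCM-Ex, 10.95, 9.83 and 9.89 in iCM and 8.31, 10.07 and 10.89 in saline. Its groups overlapped in each comparison. Tgfb2 was at 11.28, 10.26 and 9.23 in iCM-Ex, 10.70, 8.998 and 10.14 in iCM and 13.19, 12.23 and 11.40 in saline. All 6 injected arrays lay below the saline arrays. Differences were −2.33 ± 0.63 in iCM minus saline (adjusted p = 0.0684) and −2.02 ± 0.63 in iCM-Ex minus saline (adjusted p = 0.173), and neither passed. In iCM minus saline Tgfb2 passed among genes above the median level, where fewer genes were tested, and with the replicate number as a block. Tgfb3 was at 12.45, 11.81 and 11.14 in iCM-Ex, 11.31, 9.49 and 8.35 in iCM and 10.08, 11.51 and 12.14 in saline. Its difference in iCM-Ex minus iCM was 2.09 ± 0.74 (adjusted p = 0.213). No test compared the isoforms with one another.

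Among BMP and activin ligands, Bmp4 was at 7.23, 8.90 and 9.38 in iCM-Ex, 8.32, 5.76 and 6.75 in iCM and 7.97, 9.61 and 9.63 in saline, a difference of −2.13 ± 0.74 in iCM minus saline (adjusted p = 0.137). Bmp6, which signals in vessels and in iron control, was at 8.30, 9.91 and 10.30 in iCM-Ex, 8.04, 7.19 and 7.91 in iCM and 9.09, 9.15 and 10.21 in saline. All iCM arrays lay below the others. Its differences were −1.77 ± 0.53 in iCM minus saline (adjusted p = 0.0916) and 1.79 ± 0.53 in iCM-Ex minus iCM (adjusted p = 0.138). Without iCM-Ex replicate 1 both passed, at 0.0427 and 0.0294. Inhba, the activin A subunit, averaged 5.99 in iCM-Ex, 5.55 in iCM and 6.02 in saline with overlapping arrays. Bmp2 and Bmp7 lay below the negative controls, and Bmp2 differed by 0.70 ± 0.26 in iCM-Ex minus iCM (adjusted p = 0.241).

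Type I receptors showed no call. Acvr1, the BMP receptor ALK2, averaged 7.19 in iCM-Ex, 6.80 in iCM and 7.81 in saline, and its iCM arrays lay below the saline arrays (−1.01 ± 0.32, adjusted p = 0.107). Acvr1b, the activin receptor ALK4, averaged 7.46, 8.63 and 7.94 in iCM-Ex, iCM and saline, and its iCM-Ex arrays lay below the iCM arrays (−1.17 ± 0.40, adjusted p = 0.194). Tgfbr1, the TGF-beta receptor ALK5, averaged 9.96, 10.52 and 9.86, and the BMP receptor gene Bmpr1a 10.74, 10.81 and 10.52, in iCM-Ex, iCM and saline. The Acvrl1 arrays were 7.93 to 8.17 in iCM-Ex, 6.50 to 8.28 in iCM and 7.18 to 7.87 in saline.

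Of the other type II receptors, Acvr2a, which binds activins and BMPs, was at 8.02, 8.21 and 7.06 in iCM-Ex, 9.29, 9.46 and 9.11 in iCM and 9.04, 8.74 and 8.06 in saline. Every iCM array lay above all the others. The difference was −1.52 ± 0.37 in iCM-Ex minus iCM (adjusted p = 0.0851) and −0.85 ± 0.37 in iCM-Ex minus saline (adjusted p = 0.315). Tgfbr2, the TGF-beta type II receptor, was at 11.04 to 11.46 in iCM-Ex, 10.996 to 11.14 in iCM and 9.59 to 11.48 in saline, where replicate 1 was low. Acvr2b lay below the negative controls. The coreceptor Tgfbr3, or betaglycan, was at 9.96, 9.03 and 8.46 in iCM-Ex, 10.03, 11.08 and 11.28 in iCM and 9.18, 10.20 and 9.61 in saline, with differences of 1.13 ± 0.47 in iCM minus saline (adjusted p = 0.205) and −1.64 ± 0.47 in iCM-Ex minus iCM (adjusted p = 0.129). Unlike Eng, it was highest on average in iCM.

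No SMAD gene passed in any comparison. Smad5, a BMP-arm SMAD, was at 9.70, 10.71 and 9.45 in iCM-Ex, 10.16, 10.30 and 9.91 in iCM and 10.57, 11.84 and 11.40 in saline. Its differences from saline were −1.32 ± 0.41 in iCM-Ex (adjusted p = 0.174) and −1.15 ± 0.41 in iCM (adjusted p = 0.148). Smad4, the common partner, was at 12.68, 12.18 and 11.58 in iCM-Ex, 11.50, 10.55 and 10.52 in iCM and 10.88, 11.14 and 12.67 in saline, and its iCM-Ex arrays lay above the iCM arrays (1.29 ± 0.50, adjusted p = 0.262). Smad1 and Smad3 likewise did not overlap between iCM-Ex and iCM, at means of 8.38 and 7.78 for Smad1 and 9.15 and 8.32 for Smad3. Smad2 averaged 7.52 in iCM-Ex, 7.55 in iCM and 7.66 in saline, with SDs of 0.15 to 0.32.

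Inhibitors inside the cell were also uncalled. Smurf2, a ubiquitin ligase that removes SMADs and receptors, was at 10.53, 10.39 and 9.53 in iCM-Ex, 10.27, 9.27 and 9.36 in iCM and 10.60, 11.18 and 11.20 in saline. All injected arrays lay below the saline arrays, and the difference in iCM minus saline was −1.36 ± 0.38 (adjusted p = 0.0792). Without iCM replicate 1 the iCM value passed (adjusted p = 0.0433). Skil, the SMAD corepressor SnoN, was at 13.47, 11.33 and 10.73 in iCM-Ex, 10.21, 11.14 and 9.68 in iCM and 8.91, 11.30 and 10.97 in saline, so 1 iCM-Ex array stood apart. The inhibitory SMAD genes averaged 7.51, 6.76 and 7.48 (Smad6) and 7.76, 8.37 and 8.05 (Smad7) in iCM-Ex, iCM and saline. Smurf1 averaged 8.52, 8.73 and 8.92 and Ski 8.37, 8.15 and 8.85 in the same order, with overlapping arrays.

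Latent TGF-beta binding proteins, which hold TGF-beta in the matrix, were lower on average in iCM than in saline for all 4 genes, with 0 past the test and 1 with an unadjusted p under 0.05. Ltbp2 was at 8.31, 6.48 and 5.71 in iCM-Ex, 6.77, 5.67 and 5.62 in iCM and 6.71, 8.11 and 8.06 in saline (iCM minus saline −1.61 ± 0.65, adjusted p = 0.194). Ltbp3 averaged 8.60 in iCM-Ex, 6.88 in iCM and 7.89 in saline (iCM-Ex minus iCM 1.72 ± 0.69, adjusted p = 0.275). Ltbp1 averaged 6.10, 6.45 and 7.03 in iCM-Ex, iCM and saline, and its iCM-Ex arrays lay below the saline arrays (−0.93 ± 0.37, adjusted p = 0.268). Ltbp4 averaged 11.38, 11.54 and 11.88. The 7 measured fibroblast markers were likewise all lower on average in iCM than in saline. Among them Dcn differed by −0.04 and lay near the highest deposited value, 19.93. In iCM-Ex all 7 were higher than in iCM, as were Ltbp2 and Ltbp3, while Ltbp1 and Ltbp4 were lower. The markers had array means of 14.00 to 14.83 in iCM-Ex, 12.19 to 14.23 in iCM and 13.35 to 14.96 in saline. The part of fibroblast content was not tested.

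Of the secreted antagonists, Grem1 (gremlin, which binds BMPs) was at 3.28, 3.29 and 3.54 in iCM-Ex, 3.52, 3.31 and 2.83 in iCM and 4.65, 4.17 and 4.20 in saline. All injected arrays lay below saline, but each group mean was below the negative controls (iCM minus saline −1.12 ± 0.28, adjusted p = 0.0583, and iCM-Ex minus saline −0.97 ± 0.28, adjusted p = 0.153). Grem1 passed in iCM minus saline under quantile normalisation and under robust eBayes with an intensity trend. Fst (follistatin, which binds activins) was at 8.04, 7.13 and 7.51 in iCM-Ex, 6.79, 7.59 and 6.78 in iCM and 6.21, 6.02 and 7.29 in saline (iCM-Ex minus saline 1.06 ± 0.41, adjusted p = 0.256). Nog (noggin) averaged 4.54, 4.26 and 4.24, near background.

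The comparison of iCM-Ex with iCM sets hearts given the exosomes against hearts given the cells. Of the 42 members 1 rose, Id3, and 0 fell. The share that rose was 2.38%, against 0.795% of all genes, and 0.272% of all genes fell. At an unadjusted p under 0.05 there were 12 members (28.6%, against 14.5% of all genes), 9 of them higher in iCM-Ex. The arrays did not overlap for 10 members higher in iCM-Ex (23.8%, against 10.2% of all genes) and for 3 lower (7.14%, against 10%). The median difference was 0.41, against −0.04 over all genes. It was 0.25 without iCM-Ex replicate 1, 0.64 without iCM-Ex replicate 3 and 0.64 without iCM replicate 1. It was −0.04 with control separation as a covariate and 0.81 without the 3 arrays with other tissue markers.

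Transcriptional targets were the role in which every gene lay higher in iCM-Ex than in iCM without overlap, 4 of 4, with 1 past the test. Over all genes 10.2% lay higher without overlap and 0.795% passed as higher. Of the fibroblast and of the macrophage markers, 42.9% each lay higher without overlap, and 14.3% of the macrophage markers lay lower. The fibroblast markers so counted include Dcn, which differed by 0.05 and was at the highest deposited value, 19.93, on every iCM-Ex array. Id3 was at 10.04, 9.72 and 10.06 in iCM-Ex, 7.59, 5.98 and 6.70 in iCM and 6.83, 8.75 and 9.59 in saline. The iCM-Ex arrays lay close together and above all the rest, while saline spanned a wide range. Id3 was 9.08-fold higher in iCM-Ex than in iCM (limma adjusted p = 0.0492, with a 95% confidence interval of 1.77 to 4.59 on the log2 scale). Against saline its difference was 1.55 ± 0.64 in iCM-Ex (adjusted p = 0.279) and −1.63 ± 0.64 in iCM (adjusted p = 0.178). The iCM value passed without saline replicate 1 (adjusted p = 0.0375).

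The Id3 call lay close to the threshold. Without iCM-Ex replicates 1, 2 or 3 adjusted p was 0.0705, 0.17 and 0.213, without iCM replicates 2 or 3 it was 0.161 and 0.105, and without saline replicate 2 it was 0.0875. It was 0.0507 when rows without a symbol were tested too. Without the 3 arrays with other tissue markers the difference was 3.18 (adjusted p = 0.401). With control separation as a covariate it was 1.55 (adjusted p = 0.862). Over all genes 208 passed in iCM-Ex minus iCM as reported, and 0 with the covariate. Without iCM-Ex replicates 1, 2 or 3 the count over all genes was 401, 0 and 1. The loss of the call with the covariate or without iCM-Ex replicate 2 is therefore not particular to Id3.

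Id2, from the same family, was at 13.40, 14.03 and 14.53 in iCM-Ex, 12.72, 10.87 and 8.80 in iCM and 10.68, 11.75 and 13.22 in saline. The iCM-Ex arrays lay above all others, and the difference from iCM was 3.19 ± 0.90 (adjusted p = 0.123). It passed without iCM replicate 1 (adjusted p = 0.0396). Against saline the iCM-Ex difference was 2.11 ± 0.90 (adjusted p = 0.301). Id1 was at 11.24, 10.15 and 10.37 in iCM-Ex, 10.14, 9.30 and 10.05 in iCM and 9.32, 10.84 and 10.86 in saline. Tgfbi, a matrix protein induced by TGF-beta, was at 12.63, 11.75 and 12.01 in iCM-Ex, 11.69, 11.14 and 9.49 in iCM and 10.18, 11.82 and 11.78 in saline (iCM-Ex minus iCM 1.35 ± 0.60, adjusted p = 0.34). The macrophage marker means, for cells that also express Id and Tgfbi genes, were 10.99 to 11.85 in iCM-Ex, 9.82 to 10.98 in iCM and 8.87 to 11.84 in saline, and their part in these differences was not tested. Of these 7 markers 5 were higher in iCM-Ex than in iCM and 2 lower, Itgam by 0.13 and Cd163 by 1.64, the latter without overlap.

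**Figure D3:**
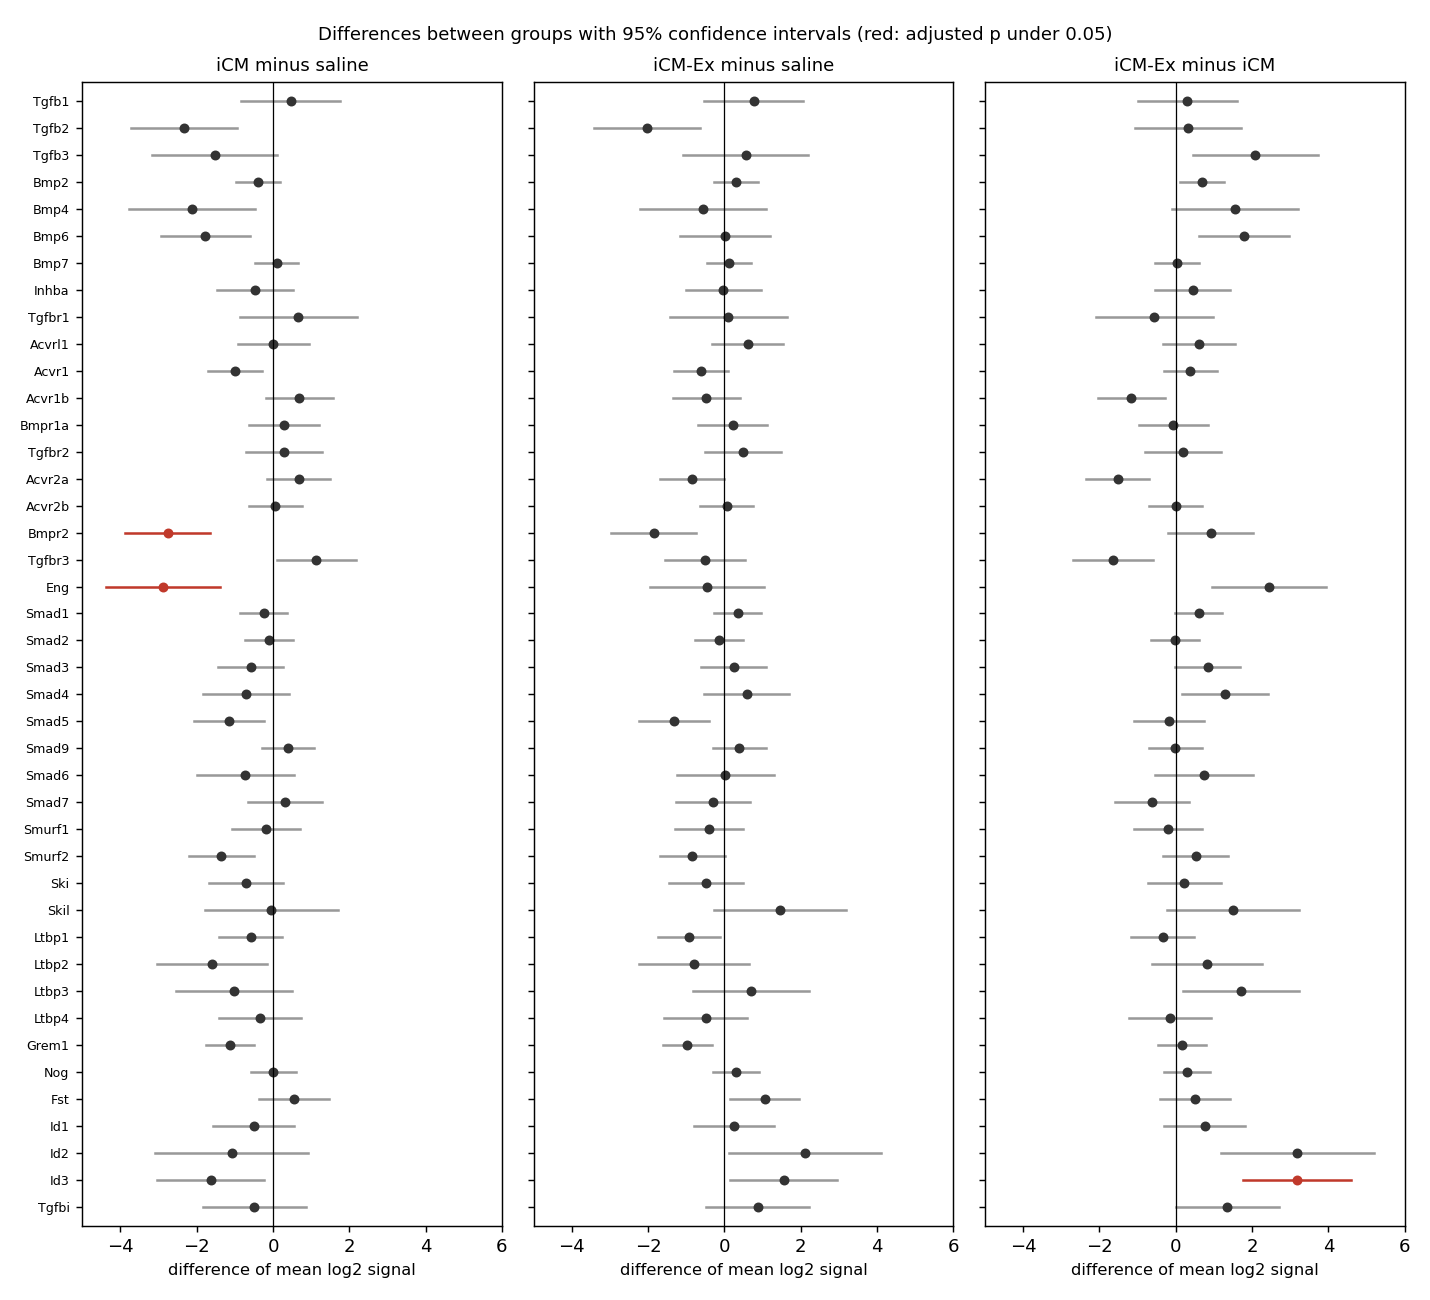
Difference of mean log2 signal for each member in the 3 comparisons, with 95% confidence intervals from the limma fit (n = 3 arrays per group). Red marks an adjusted p under 0.05: Bmpr2 and Eng in iCM minus saline, and Id3 in iCM-Ex minus iCM.

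The comparison of iCM-Ex with saline sets hearts given the exosomes against those given saline. By limma 0 of 42 members passed, against 0.220% of all genes that rose and 0.128% that fell. At an unadjusted p under 0.05 there were 9 members (21.4%, against 15.2% of all genes), 3 higher and 6 lower. The arrays did not overlap for Acvrl1, Id2 and Id3 on the higher side (7.14%, against 12.2% of all genes). On the lower side they did not overlap for Tgfb2, Bmpr2, Smurf2, Ltbp1 and Grem1 (11.9%, against 9.53%). The median difference was 0.04, and 0.04 over all genes. It turned on single arrays: the members' median was −0.22 without saline replicate 1, with 14 of 42 higher, 0.32 without saline replicate 3, −0.05 without iCM-Ex replicate 1, 0.005 without iCM-Ex replicate 2 and 0.11 without iCM-Ex replicate 3.

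The rest of the pathway was covered by 8 lists of 136 further genes, of which 127 were measured. In iCM against saline 0 rose and 2 fell, both in the SMAD-independent branch of 14 genes. The share that fell was 1.57% of the 127, against 2.33% of all genes. Rhoa, a small GTPase that controls the actin skeleton, was at 12.93, 13.16 and 13.07 in iCM-Ex, 11.65, 11.17 and 11.18 in iCM and 13.60, 13.27 and 13.70 in saline. It fell by 2.19 ± 0.26 in iCM (adjusted p = 0.00439) and passed in all 9 fits that left out 1 array, where adjusted p was at most 0.0256. Without the 3 arrays with other tissue markers the difference was −2.34 (adjusted p = 0.1). In iCM-Ex Rhoa rose by 1.72 ± 0.26 relative to iCM (adjusted p = 0.027). That call was lost without iCM-Ex replicates 2 (0.127) and 3 (0.152), iCM replicates 2 (0.087) and 3 (0.0758) and saline replicate 2 (0.0542), and without the 3 arrays (0.268). Control separation entered as a covariate gave 1.43 (adjusted p = 0.695), and −2.02 (adjusted p = 0.0767) for iCM minus saline. Over all genes 0 passed in iCM-Ex minus iCM with the covariate or without iCM-Ex replicate 2, and 1 without iCM-Ex replicate 3. Tab3, an adaptor of the kinase TAK1, fell by 1.54 ± 0.36 in iCM relative to saline (adjusted p = 0.0477), a call kept on leaving out 1 array only without iCM replicate 2. Without the 3 arrays its adjusted p was 0.155, and with the covariate 0.137.

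In iCM-Ex against saline 1 of the 127 rose and 1 fell, both among 22 SMAD partners and regulators. Each is 0.787% of the 127, against 0.220% of all genes that rose and 0.128% that fell. Fkbp1a, the immunophilin FKBP12 that binds type I receptors, rose by 1.98 ± 0.34 (11.07, 11.61 and 12.03 in iCM-Ex, 10.40, 9.74 and 9.98 in iCM and 9.21, 9.90 and 9.66 in saline, adjusted p = 0.0462). The nuclear kinase gene Hipk2 fell by 2.56 ± 0.43 (11.43, 11.13 and 9.80 in iCM-Ex, 12.86, 12.42 and 13.09 in iCM and 13.44, 13.66 and 12.94 in saline, adjusted p = 0.0445). On leaving out 1 array the Fkbp1a call was kept without iCM-Ex replicate 1 and the Hipk2 call without iCM-Ex replicate 1 or saline replicate 3. Their adjusted p was 0.237 and 0.202 without iCM-Ex replicate 3, and 0.374 and 0.361 without the 3 arrays. With control separation as a covariate they were 0.112 and 0.0857. Over all genes 68 passed in this comparison as reported and 5 with the covariate. The count was 0 without iCM-Ex replicate 2 or 3, iCM replicate 3 or saline replicate 2, so no call could be kept there. In iCM-Ex minus iCM the differences were 1.53 for Fkbp1a (adjusted p = 0.0629) and −2.004 for Hipk2 (adjusted p = 0.0588).

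Of 23 measured TGF-beta target genes none passed in any comparison by limma, although 6 had an unadjusted p under 0.05 in iCM minus saline (26.1%, against 20.5% of all genes), 7 in iCM-Ex minus iCM (30.4%, against 14.5%) and 2 in iCM-Ex minus saline (8.70%, against 15.2%). In iCM 17 of the 23 were lower than in saline, with a median of −1.19. In iCM-Ex 21 were higher than in iCM, with a median of 0.99. In iCM-Ex minus saline the median was 0.32. These medians compare with 0.08, −0.04 and 0.04 over all genes. The 7 fibroblast markers, 3 of which (Col1a1, Col1a2 and Postn) are in the target list too, were all lower in iCM than in saline, with a median of −1.14, and all higher in iCM-Ex than in iCM, with a median of 0.86. The fibroblast marker Dcn, near the highest deposited value, differed by −0.04 and 0.05 in these comparisons. Acta2 is both a target and 1 of 8 smooth muscle and pericyte markers. Of these 8, 6 were lower in iCM than in saline and 2 higher, with a median of −0.935. Smtn, 1 of the 6, passed there (limma adjusted p = 0.0498). In iCM-Ex 5 of the 8 were higher than in iCM and 3 lower, with a median of 0.775. The part of fibroblasts, smooth muscle cells and pericytes in the targets' differences was not tested. Pmepa1, a TGF-beta-induced inhibitor of SMAD signalling, was at 13.20, 11.56 and 11.73 in iCM-Ex, 11.17, 8.01 and 9.44 in iCM and 10.40, 11.79 and 12.32 in saline (iCM-Ex minus iCM 2.62 ± 0.78, adjusted p = 0.142). Ccn2, the matricellular protein CTGF, was at 12.82, 12.66 and 11.39 in iCM-Ex, 12.27, 11.50 and 11.37 in iCM and 12.38, 13.51 and 13.70 in saline (iCM minus saline −1.48 ± 0.48, adjusted p = 0.114). Tnc (tenascin C) differed by −2.82 ± 0.75 in iCM minus saline (adjusted p = 0.0677) and −2.16 ± 0.75 in iCM-Ex minus saline. Cdkn1a differed by 2.90 ± 0.72 in iCM-Ex minus iCM and Junb by 3.14 ± 0.78 in iCM-Ex minus saline, where iCM-Ex replicate 1 was the highest at 12.55 and 13.38.

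None of the other lists held a call. Of 17 genes for storage and activation of latent TGF-beta 12 were lower in iCM than in saline, with a median of −1.07, against 0.08 over all genes and −1.14 over the fibroblast markers, whose part was not tested. Lrrc32 (GARP, which anchors latent TGF-beta on cells) was at 8.25, 7.40 and 7.69 in iCM-Ex, 6.55, 3.76 and 5.53 in iCM and 6.70, 7.37 and 8.24 in saline, with differences of −2.16 in iCM minus saline and 2.50 in iCM-Ex minus iCM, whose sizes are uncertain because the iCM mean was below the negative controls. Itgb8 differed by −1.51 in iCM minus saline and −1.05 in iCM-Ex minus saline, Itgb6 by −1.40 in iCM-Ex minus saline and Itgav by 1.02 in iCM-Ex minus iCM. Among 17 extracellular antagonists the BMP antagonist gene Nbl1 was at 9.82, 9.65 and 9.39 in iCM-Ex, 10.16, 9.95 and 9.41 in iCM and 6.75, 8.32 and 8.71 in saline, above saline in both injected groups (1.91 ± 0.47 in iCM, adjusted p = 0.0522, and 1.69 ± 0.47 in iCM-Ex, adjusted p = 0.133). Fstl1 differed by 2.36 in iCM-Ex minus saline, Sostdc1, below the negative controls in both groups, by 1.23 in iCM minus saline, and Aspn by 1.999 and Htra1 by 1.22 in iCM-Ex minus iCM.

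Over the 19 other ligands Mstn, which encodes myostatin, was at 4.10 to 5.57 in iCM-Ex, 5.85 to 7.16 in iCM and 4.29 to 5.55 in saline, so the iCM arrays lay above the others. The muscle-marked iCM replicate 2 held its highest value, and its means in iCM-Ex and saline were below the negative controls. Bmp1 differed by −1.50 in iCM minus saline, Gdf6, below the negative controls in iCM and saline, by 1.06 in iCM-Ex minus iCM and 0.72 in iCM-Ex minus saline, and Bmp10, below the negative controls in every group, by −1.10 in iCM-Ex minus saline. Of 8 other receptors and coreceptors Cd109 differed by −1.70 and the decoy receptor gene Bambi by −1.11 in iCM minus saline, and Rgmb by −0.46 in iCM-Ex minus saline. In iCM-Ex minus iCM Bambi differed by 0.79 and Cd109 by 0.65, and in iCM-Ex minus saline Cd109 by −1.05. Of 13 BMP targets other than Id1, Id2 and Id3, 10 were higher in iCM-Ex than in iCM (76.9%, against 46.1% of all genes). The median over the 13 was 0.31, against −0.04 over all genes. Msx2, Sp7, Dlx5 and Sost lay below the negative controls in every group, and Msx1 in iCM and saline, so their directions are uncertain. Smoc2 differed by 0.68 from iCM and 0.69 from saline, Dlx5, near background, by 0.42 in iCM-Ex minus saline and Atoh8 by −0.57 in iCM minus saline. The SMAD regulators Ranbp3 and Crebbp differed by 0.97 and −0.88 in iCM minus saline, and Rock1 and Map3k7 of the SMAD-independent branch by −1.42 and −0.84 in iCM-Ex minus saline.

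**Figure D4:**
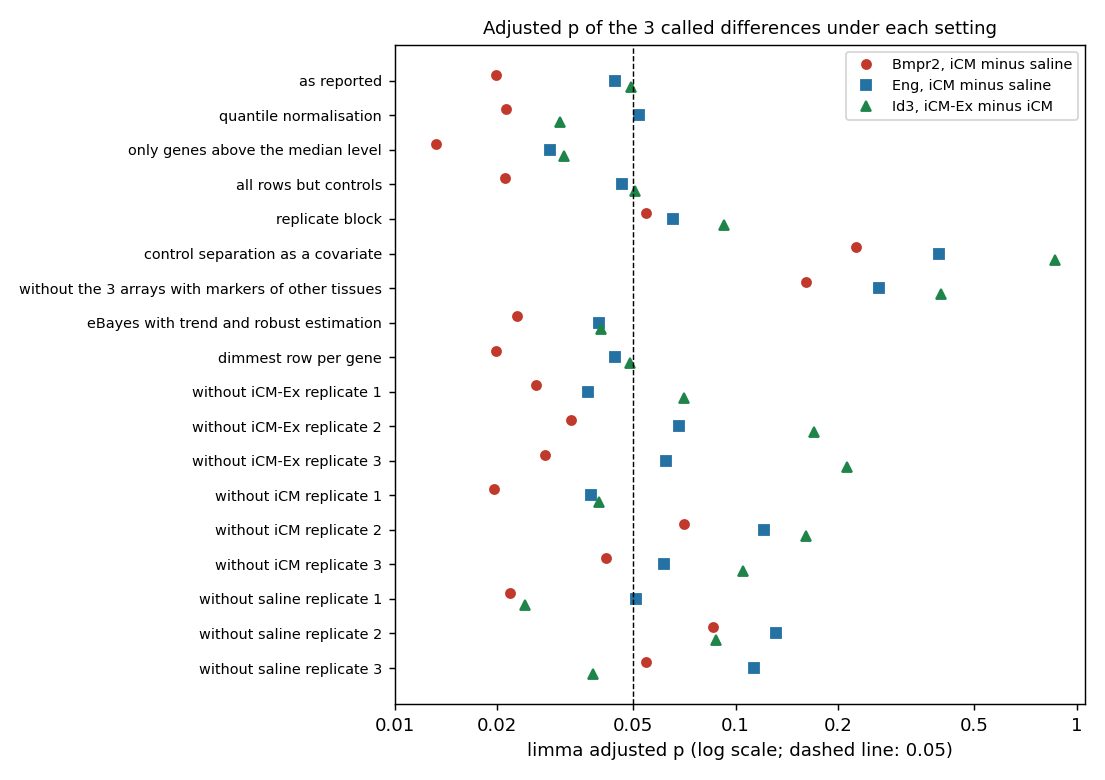
Limma adjusted p (log scale) of the 3 called differences as reported and under 17 other settings, with the threshold as a dashed line. Bmpr2 is left of the line in 11 of the 17, Eng in 6 and Id3 in 7, and all 3 are right of it with a replicate block, with control separation as a covariate and without the 3 arrays with other tissue markers.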

How the data were processed

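RNA from 9 peri-infarct samples was measured on Clariom S arrays, from 5.5 µg of labelled cDNA, per the labels. The submitters' processing notes name Affymetrix Expression Console for the deposited log2 signals; no source used here gives its version or the normalisation, and the scale was inferred from their range (2.25 to 19.93). Controls apart, the 28846 rows held 22206 gene rows. Of these 19572 had 1 symbol and 2634 none, and for 55 genes with several rows the brightest was kept, which left 19505 genes. The annotation is GEO's platform table, and the Entrez identifiers of these 19572 rows were found in RefSeq's gene table. Symbols were matched to the lists, and 42 of 43 members and 127 of 136 further pathway genes were measured.

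No further normalisation or filter was applied. All 9 arrays entered 1 fit in limma 3.58.1 (R 4.3.3) with a mean per group, eBayes (prior degrees of freedom 4.23, residual 6) and the 3 contrasts, two-sided, with Benjamini-Hochberg adjustment over 19505 genes and a threshold of 0.05; the F test used the same fit. The fit was tested on simulated data. The number of arrays limits the precision, and 3 against 3 arrays cannot give an exact permutation p below 0.1. The labels call the replicates biological. The members and lists, the control-separation covariate and the 3 arrays left out together were chosen with earlier results of these data known. Differences with a test are given for members with an unadjusted p under 0.05, and of each further list up to 4 genes past the threshold, or else the 2 with the smallest p, are named. Promoter windows and the motifs were chosen after the values were seen.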

Additional observations from a re-analysis of the deposited data

How the results depend on the processing

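Each count of members called was recomputed under 17 settings, 9 of which leave out 1 array. For iCM minus saline the count was 2, and 1 with the replicate number as a block (replicate block, Tgfb2), 0 with control separation as a covariate, 0 without the 3 arrays with other tissue markers and 0 to 3 on leaving out 1 array. For iCM-Ex minus iCM it was 1, and 0 with all rows but controls, 0 with the replicate block, 0 with the covariate, 0 without the 3 arrays and 0 to 2 on leaving out 1 array. For any difference among the groups it was 1, and 3 under quantile normalisation, 3 among genes above the median level, 3 with an intensity trend and robust estimation, 0 with the replicate block, 0 with the covariate, 0 without the 3 arrays and 0 to 3 on leaving out 1 array. For iCM-Ex minus saline it was 0 under every setting run. In iCM-Ex minus saline 0 of all genes passed with the replicate block. The same held without iCM-Ex replicate 2 or 3, iCM replicate 3 or saline replicate 2, so no member could pass there. In iCM-Ex minus iCM 0 of all genes passed with the covariate and without iCM-Ex replicate 2. With the replicate block adjusted p was 0.0545 for Bmpr2, 0.0657 for Eng, 0.0927 for Id3, 0.0587 for Tab3, 0.0986 for Fkbp1a, 0.0894 for Hipk2 and 0.0646 for Rhoa in iCM-Ex minus iCM, all past the threshold without it, and 0.0218 for Rhoa in iCM minus saline. The groups share only the numbers: in the pairing check deviations of same-numbered arrays correlated at r = −0.26 to 0.07 over 9 pairs, and 0 of 9 arrays were closest to their own number. Under quantile normalisation adjusted p was 0.052 for Eng. Of the 33 member differences with an unadjusted p under 0.05, 32 kept their direction under every setting in which they were fitted, and Eng in iCM-Ex minus iCM turned to −0.039 with the covariate. Causes of these changes were not tested. Leaving out arrays leaves fewer samples, and the filter tests fewer genes, but the part of either was not tested. Over all genes the iCM minus saline count was 716, and 126 without saline replicate 2, 33 with the covariate and 6 without the 3 arrays. Differences of the 6 members below the negative controls are of uncertain size.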
